A study of Rattus norvegicus with 8 samples.

Results

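The 10 genes described here encode enzymes that build and sulfate the sugar chains of proteoglycans: Xylt1 and Xylt2, which start the chain, the N-deacetylase/N-sulfotransferases Ndst1, Ndst3 and Ndst4, the 6-O-sulfotransferases Hs6st1, Hs6st2 and Hs6st3, and the 3-O-sulfotransferases Hs3st4 and Hs3st5. They were taken by symbol from a list of 30560 genes, and all 10 were found. The genes were chosen on measured values of these same nuclei, so their levels across cell groups are given as a description with no test. The nuclei came from nodose ganglia of experimentally naive Long Evans rats aged 8 weeks, 18 male and 18 female, with no transgene or treatment in any group. Each of 12 pools held the ganglia of 1 side from 6 rats, with 3 pools for male left, male right, female left and female right. The numbers of rats and pools imply that both ganglia of a rat were used, so the sides are probably not independent sets of animals, and the labels do not say which rats share a pool. Each pool is a replicate, and the ganglia within it cannot be told apart. In 2 pools, male left 1 and female left 1, the Y-linked genes go against the labelled sex, so sex is called labelled sex throughout, and its results are also given without both pools.

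Proteoglycans are core proteins that carry long sulfated sugar chains on the cell surface and in the matrix. Xylosyltransferases attach xylose to a serine of the core protein, which is the step that opens both heparan sulfate and chondroitin sulfate chains. On heparan sulfate, NDST enzymes replace acetyl with sulfate groups on glucosamine, and 6-O- and 3-O-sulfotransferases then add sulfate at further positions of the sugar. The resulting sulfation pattern governs which growth factors, guidance cues and receptors bind the chain. In sensory neurons these chains are known as co-receptors in axon growth and synapse formation.

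After filtering, 36738 nuclei with 139954192 unique transcripts (UMIs) remained, between 1738 and 4849 nuclei and between 7139364 and 19456287 UMIs a pool. Clusters were built without the 10 enzymes and the other genes of their pathway list, and were named from marker lists. There were 25328 neurons in 24 subclusters, 4231 satellite glia, 2296 myelinating Schwann cells and 1028 vascular nuclei, and 3382 nuclei in clusters that could not be named. Levels are in CPM, the UMIs of the gene scaled to the total UMIs of the group. They are not divided by gene length, so levels are compared between groups for 1 gene and not between genes. Long genes give more intronic UMIs in nuclei.

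RefSeq holds a promoter entry for 9 of the 10 genes, all but Ndst3. The 250 bases before the start of transcription are shown for 4 of them. Xylt1, Ndst4 and Hs6st2 are shown because they are high in 1 or a few neuron subclusters. Hs3st4 is shown because its highest pooled level is in the same subcluster, n3, as that of Xylt1. Hs3st4 is more widespread, with a median of 405 CPM over subclusters, and its n3 level overlaps those of n1 and n2. The Pearson r of Xylt1 with Hs3st4 over subclusters on log2(CPM + 5) was 0.03. Each is printed 5′ to 3′ on the gene's strand in the RefSeq build GRCr8, which is not the build of the deposited counts, and the capitals mark CG dinucleotides.
Xylt1, chr1:181077972-181078221, plus strand: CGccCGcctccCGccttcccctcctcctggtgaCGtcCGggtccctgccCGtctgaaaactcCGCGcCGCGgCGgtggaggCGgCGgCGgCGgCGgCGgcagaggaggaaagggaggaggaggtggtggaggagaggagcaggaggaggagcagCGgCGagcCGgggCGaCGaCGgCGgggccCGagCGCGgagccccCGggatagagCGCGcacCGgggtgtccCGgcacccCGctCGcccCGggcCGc
Hs3st4, chr1:187969877-187970126, plus strand: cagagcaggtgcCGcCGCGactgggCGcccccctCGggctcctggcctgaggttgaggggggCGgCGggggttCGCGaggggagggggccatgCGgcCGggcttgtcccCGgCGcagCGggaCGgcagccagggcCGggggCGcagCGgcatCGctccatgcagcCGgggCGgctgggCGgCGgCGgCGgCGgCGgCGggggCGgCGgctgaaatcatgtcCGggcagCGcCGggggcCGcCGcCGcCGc
Ndst4, chr2:216461293-216461542, plus strand: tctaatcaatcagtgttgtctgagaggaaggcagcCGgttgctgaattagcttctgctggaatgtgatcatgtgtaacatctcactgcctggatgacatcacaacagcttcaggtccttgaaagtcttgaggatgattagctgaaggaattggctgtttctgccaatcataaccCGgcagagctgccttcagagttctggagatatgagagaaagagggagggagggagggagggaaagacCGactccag
Hs6st2, chrX:136182155-136182404, minus strand: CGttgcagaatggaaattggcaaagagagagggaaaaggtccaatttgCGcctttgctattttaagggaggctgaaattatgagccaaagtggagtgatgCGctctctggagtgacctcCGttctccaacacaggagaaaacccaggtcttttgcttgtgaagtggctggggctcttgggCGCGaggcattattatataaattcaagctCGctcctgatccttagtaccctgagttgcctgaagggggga
Xylt1 has 36 CG dinucleotides in this window and Hs3st4 has 37, more than 97.8% and 98.1% of 33469 RefSeq promoter windows of the same length. Ndst4 has 3 and Hs6st2 has 7, against a median of 5 over all windows. The motif searched was CG, which reads the same on both strands, and 92.2% of all windows hold at least 1. Hs6st3 has 35, Xylt2 25, Hs3st5 10 and Ndst1 5. Hs6st1 has 33, but its window reads from a start codon to its end without a stop codon. The printed Hs3st4 window does so as well, and the Ndst4 window does so over a short stretch at its end. These windows may therefore hold coding sequence. The counts are a description of these windows only.

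**Figure D1:**
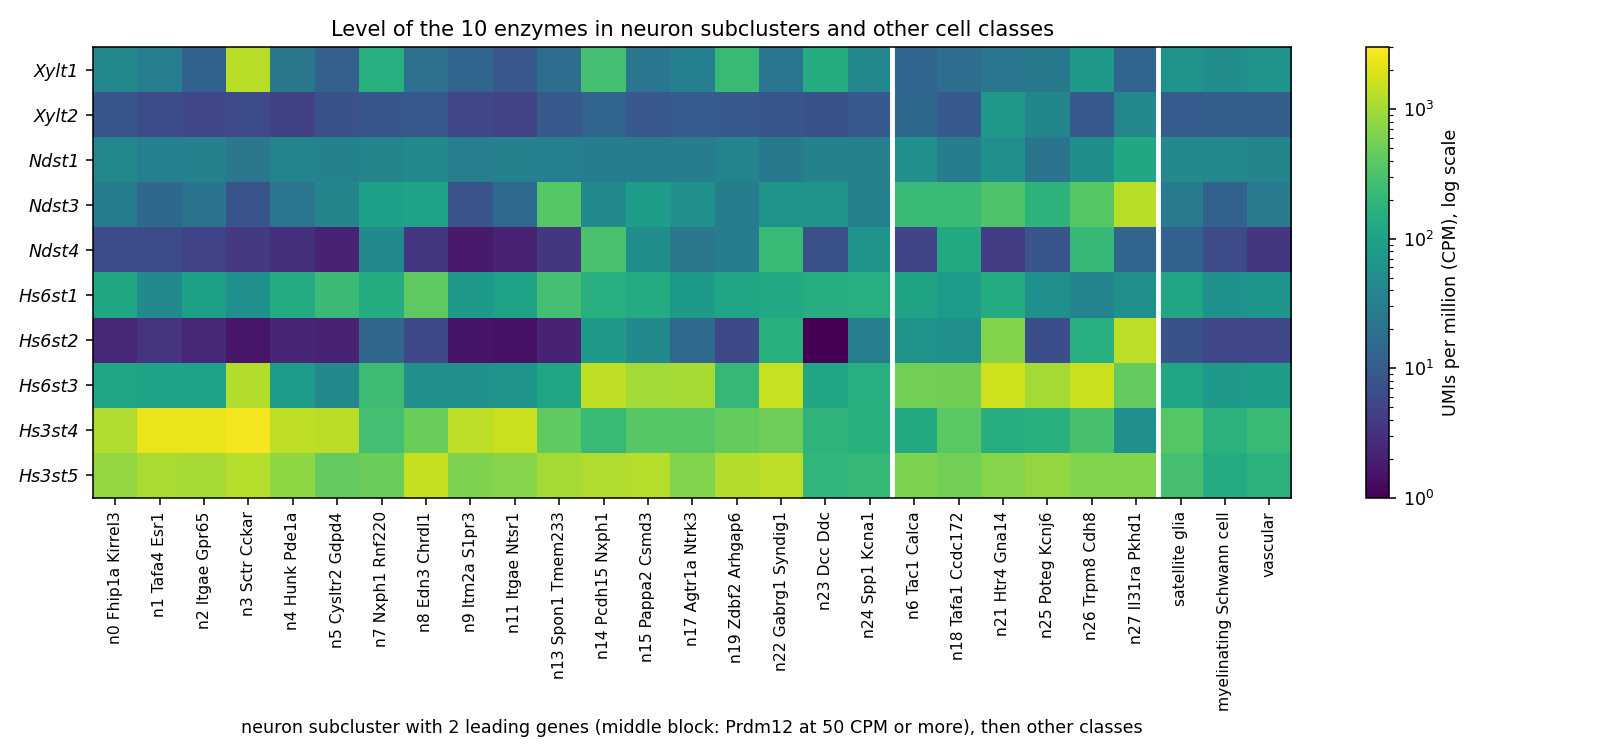
Level of each enzyme (rows) in the 24 neuron subclusters and 3 other cell classes (columns) in CPM on a log colour scale, from all nuclei of the group; the middle block holds the 6 subclusters with Prdm12 at 50 CPM or more. Xylt1 is brightest in n3 (1254 CPM), Hs3st4 is bright in n3, n1 and n2, and Ndst3 and Hs6st2 are brightest in n27.

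Xylt1, 1 of the 2 xylosyltransferases, was concentrated in a single neuron subcluster. Subcluster n3, led by the secretin receptor Sctr, the cholecystokinin receptor Cckar and the nicotinic subunit Chrna3, held 6.58% of the neurons and 68.0% of their Xylt1 UMIs. Its level there was 1231 ± 204 CPM (SD, n = 12 pools), from 963 to 1647. The next subclusters were n14 (Pcdh15, Nxph1) at 286 ± 38.3 CPM and n19 (Zdbf2, Arhgap6) at 233 ± 76.6 CPM (SD, n = 12 each). The lowest pool of n3 lay above the highest pool of n14, while n14 and n19 overlapped. The lowest subcluster was n11 (Itgae, Ntsr1) at 8.77 ± 3.29 CPM (SD, n = 12), so that the pooled level of n3 was 142 times that of n11. The median over the 24 subclusters was 23.7 CPM. With each nucleus thinned to 1000 UMIs, 58.1% of n3 nuclei held a Xylt1 UMI, against 0.83% of n11 nuclei and 5.62% of satellite glia; unthinned, the shares were 78.6%, 5.36% and 14.6%. Outside the pathway list, the genes with the most similar pattern over the 24 subclusters were the fibrillin gene Fbn2 (Pearson r = 0.84 on log2(CPM + 5)), Cnnm2 (0.82) and Zbtb7c (0.81), among 11444 genes.

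Xylt2, the other xylosyltransferase, was low in most subclusters. It stood at 78.3 ± 14.2 CPM in n21 (Htr4, Gna14; SD, n = 8 pools), from 61.3 to 97.6, and its median over subclusters was 8.85 CPM. It was next highest in n27 (Il31ra, Osmr), with 41.2 CPM from 6 UMIs, and in n25 (Poteg, Kcnj6) with 39.0 CPM from 23 UMIs. Its lowest level was 4.80 CPM from 24 UMIs in n4 (Hunk, Pde1a). In n3, the subcluster of the Xylt1 peak, Xylt2 was at 6.51 ± 3.84 CPM (SD, n = 12). Over the 24 subclusters, which share libraries, the Pearson r between the 2 genes on log2(CPM + 5) was -0.13. Tmem45b (r = 0.94), AABR07069587.2 (0.93) and Hsbp1l1 (0.93) were most like Xylt2.

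The 3 NDST genes had different patterns. Ndst1, the broadly expressed form, was even: its median over subclusters was 32.9 CPM and its pooled level ranged from 22 CPM in n25 to 117 CPM in n27, where it rests on 17 UMIs. No neighbours in its order were separated in all pools. Below n27 came n6 (Tac1, Calca) and n21, both at 56.5 CPM. Cecr2 (r = 0.89), ENSRNOG00000023053 (0.86) and Zbtb39 (0.86) were most like it.

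Ndst3 was highest in n27, the small subcluster of 58 nuclei led by the itch receptor genes Il31ra and Osmr, at 1258 CPM pooled from 183 UMIs (95% Poisson interval 1082 to 1454, which covers counting error only). Only 2 pools held 10 or more n27 nuclei, at 1016 and 1666 CPM. It was next at 442 ± 202 CPM in n26 (SD, n = 7), led by the cold receptor Trpm8, and at 365 ± 42.5 CPM in n13 (Spon1, Tmem233; SD, n = 12), which overlapped. The lowest levels were in n9 (Itm2a, S1pr3) at 7.39 ± 3.80 CPM and in n3 at 7.88 ± 4.82 CPM (SD, n = 12 each), which overlapped too. Plpp4 (r = 0.91), Tanc1 (0.90) and Pik3c3 (0.88) were most like Ndst3.

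Ndst4 was nearly limited to a few subclusters. Its level was 320 ± 156 CPM in n14, from 144 to 600, then 225 ± 63.2 CPM in n22 (Gabrg1, Syndig1; SD, n = 12 each) and 187 ± 107 CPM in n26 (SD, n = 7). These 3 overlapped, while the median over subclusters was 6.74 CPM and n9 had 1.97 ± 2.19 CPM (SD, n = 12). Subcluster n14 held 3.02% of the neurons and 37.2% of their Ndst4 UMIs. At a finer clustering, n14 fell into 436 nuclei with pool means of 19.8 CPM on the left and 19.7 CPM on the right, and 323 nuclei with pool means of 617 and 583 CPM. The high level of n14 was that of the second of these groups. By the share of nuclei with a UMI at 1000 UMIs, n26 (21.6%) stood above n14 (16.5%); unthinned, these were 38.5% and 31.3%. Coro6 (r = 0.92), Fam184b (0.90) and Lrrc49 (0.88) were most like Ndst4.

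Among the 6-O-sulfotransferases, Hs6st1 was present throughout with a peak in n8, Hs6st2 was sharply restricted, and Hs6st3 was high in another set of subclusters. Hs6st1 was at 407 ± 41.4 CPM in n8 (Edn3, Chrdl1), from 330 to 479, at 278 ± 16.8 CPM in n13 and at 232 ± 30.4 CPM in n5 (Cysltr2, Gdpd4; SD, n = 12 each). All pools of n8 lay above all pools of n13, and n13 overlapped n5. The lowest level was 37.1 CPM in n26, from 16 UMIs. Otof (r = 0.76), Serping1 (0.72) and Depdc1b (0.69) were most like it.

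Hs6st2 reached 1334 CPM in n27, from 194 UMIs (95% Poisson interval 1153 to 1535), and 642 ± 153 CPM in n21 (SD, n = 8). The 2 pools with enough n27 nuclei were at 1363 and 1497 CPM, above the highest n21 pool at 877 CPM. In n22 it was at 150 ± 41.6 CPM (SD, n = 12). The median over subclusters was 6.36 CPM, and no UMI was found among the 1110611 UMIs of n23 (Dcc, Ddc). Against the limit of 3 UMIs in n23 that a count of 0 allows, the pooled n27 level was 494-fold higher. This ratio leaves out the counting error of the n27 level. Slc51a (r = 0.86), Ppp1r1a (0.85) and Slc16a12 (0.84) were most like Hs6st2.

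Hs6st3 was above 1000 CPM in n21 (1818 ± 404 CPM, SD, n = 8), in n26 (1705 ± 569 CPM, SD, n = 7) and in n22, n14, n3 and n17 (1529 ± 184, 1395 ± 233, 1189 ± 138 and 1073 ± 213 CPM, SD, n = 12 each). Each of these overlapped the next. It was lowest in n5, at 43.4 ± 7.44 CPM (SD, n = 12), where Hs6st1 was among the highest. The same reversal held in n8, with Hs6st3 at 57.5 ± 22.9 CPM (SD, n = 12). Cntn3 (r = 0.86), Atp7b (0.83) and Yap1 (0.79) were most like Hs6st3.

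The 3-O-sulfotransferases Hs3st4 and Hs3st5 gave the most UMIs of the 10 genes, 136459 and 96601. Hs3st4 was at 2651 ± 250 CPM in n3, 2340 ± 180 CPM in n1 (Tafa4, Esr1) and 2370 ± 176 CPM in n2 (Itgae, Gpr65; SD, n = 12 each), which overlapped. Subcluster n11 followed at 1561 ± 107 CPM (SD, n = 12), below every pool of the first 3. The gene was lowest in n27, with 55.0 CPM from 8 UMIs, and in n6, with 129 ± 40.7 CPM (SD, n = 12). Its pattern was most like those of AABR07066379.1 (r = 0.91), Tle4 (0.91) and the collagen gene Col4a2 (0.90).

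Hs3st5 was the most even of the 10 genes over subclusters by the ratio of its highest level to its median. It was at 1481 ± 119 CPM in n8, 1373 ± 226 CPM in n22 and 1242 ± 124 CPM in n15 (Pappa2, Csmd3; SD, n = 12 each), with overlap between each and the next. Its lowest levels were 186 ± 85.9 CPM in n24 (Spp1, Kcna1; SD, n = 11) and 195 ± 72.0 CPM in n23 (SD, n = 12). Its highest pooled level was 1.97 times its median over subclusters, against 52.9 times for Xylt1. Nol10 (r = 0.77), ENSRNOG00000051237 (0.76) and Snx29 (0.75) were most like Hs3st5.

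Of the 24 subclusters, 6, n6, n18, n21, n25, n26 and n27, had Prdm12, a transcription factor of the pain-sensing neuron lineage, at 69.5 to 156 CPM. This grouping was made after the levels were seen. The median of the 6 subclusters against that of the other 18 was 274 against 35.2 CPM for Ndst3, 109 against 2.95 CPM for Hs6st2, 773 against 114 CPM for Hs6st3 and 26.7 against 8.48 CPM for Xylt2. Ndst1 (55.0 against 32.3 CPM) and Ndst4 (11.1 against 6.26 CPM) were also higher in the 6. The order was the opposite for Hs3st4 (153 against 503 CPM), Hs6st1 (69.0 against 131 CPM), Hs3st5 (663 against 913 CPM) and Xylt1 (20.3 against 27.6 CPM). The ranges of the 2 sets overlapped for all 10 genes. Among the pairs of enzymes, r over subclusters on log2(CPM + 5) was highest for Ndst3 with Hs6st2 (0.70) and lowest for Ndst3 with Hs3st4 (-0.79).

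These 6 subclusters made up between 1.70% (male left 3) and 25.6% (male left 1) of the neurons of a pool. Hs6st2 in all neurons ran from 7.16 CPM in male left 3 to 40.5 CPM in male left 1, and Ndst3 from 47.3 to 112 CPM in the same pools. Without the 6 subclusters, Hs6st2 ran from 6.90 to 13.4 CPM and Ndst3 from 41.0 to 62.8 CPM. The coefficient of variation over the 12 pools was then 21.8% for Hs6st2 in place of 47.2%, and 14% for Ndst3 in place of 27.5%. It was also lower for Xylt2 (17.5% in place of 25.0%) and Hs3st4 (5.82% in place of 9.57%). It was nearly as before for Xylt1 (28.0% and 28.9%), Ndst1, Hs6st1, Hs6st3 and Hs3st5, and it was higher for Ndst4 (32.0% in place of 24.4%). Across the 8 sublibraries, which are technical splits of the same pools, the coefficient was 9.39% for Hs6st2 and 5.20% for Ndst3 in all neurons, and between 1.38% (Hs3st5) and 11.7% (Ndst4) over the 10 genes.

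In non-neuronal nuclei the levels have to be read against neuronal RNA found there. The 12 neuron markers fixed for naming classes stood in satellite glia at 37.6% to 156% of their neuron level (median 69.5%), in Schwann cells at 15.5% to 66.5% (median 27.5%) and in vascular nuclei at 20.2% to 62.5% (median 31.8%). None of the 12 was at 0 in these classes. Hs6st2, Hs6st3, Hs3st4, Hs3st5 and Ndst3 stood in satellite glia at 30.5% to 36.4% of their neuron level, below the lowest marker (Syt1). The part of neuronal RNA in these levels was not tested. The median UMI count was 2254 a nucleus in satellite glia, 1514.5 in Schwann cells, 1659 in vascular nuclei and 2936 in neurons.

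Xylt2 and Ndst1 were the exceptions in Schwann and vascular nuclei. In Schwann cells Ndst1 was at 42.8 ± 12.4 CPM against 35.1 ± 2.60 CPM in neurons (SD, n = 12 each), and Xylt2 was at 12 ± 7.18 against 8.63 ± 2.15 CPM. These pooled levels were 121% and 130% of those in neurons, above all 12 markers, and 111% and 128% in vascular nuclei. Xylt2 rests on 55 UMIs in Schwann cells and 28 in vascular nuclei. The pools of the classes overlapped for both genes. In satellite glia Hs6st1 (85.3%), Xylt1 (53.9%) and Ndst4 (47.1%) lay within the range of the markers and below their neuron level. Ndst1 (124%) and Xylt2 (117%) were above their neuron level there, as were the markers Stmn2, Tubb3, Uchl1, Nefl and Nefm (103% to 156%). The part of neuronal RNA in the glial levels of these enzymes was not tested.

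**Figure D2:**
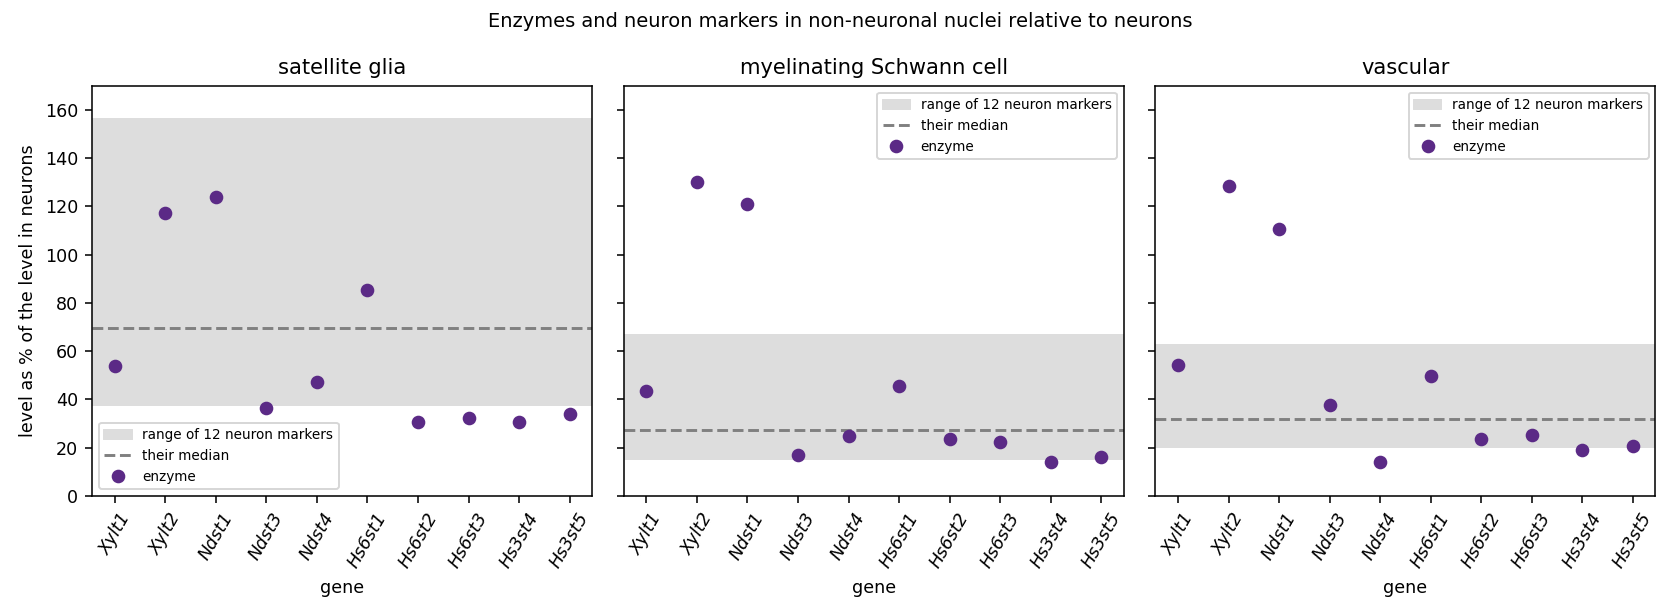
Level of each enzyme in satellite glia, myelinating Schwann cells and vascular nuclei as a percentage of its level in neurons (points), with the range (grey band) and median (dashed line) of the 12 neuron markers in the same class. Xylt2 and Ndst1 lie above the band in Schwann (130% and 121%) and vascular nuclei (128% and 111%), and 5 enzymes lie below it in satellite glia.

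The remaining genes of the pathway list, 64 in the gene list, were set beside the enzymes by role. In neurons 37 of the 64 stood at 10 CPM or more. Of the 64, 27 were higher in neurons than in satellite glia, with a median log2 ratio of -0.11 on the log2(CPM + 5) scale. Of the 10 enzymes 8 were higher, with a median of 1.03. The 10 enzymes were chosen on measured values of these nuclei, so nothing is read from this contrast. Among other heparan sulfate modification enzymes, Hs3st2, another 3-O-sulfotransferase, had the highest ratio (66.1 CPM in neurons and 26.2 in glia) and Hs3st1 the lowest (4.59 and 14.4 CPM). Among heparan sulfate core proteins the glypican Gpc5 had the highest (656 and 230.0 CPM, with 7010 CPM in n21) and the syndecan Sdc4 the lowest (4.89 and 71.3 CPM). Of the polymerases that extend heparan sulfate, Ext2 was at 138 and 114 CPM and Ext1 at 258 and 380 CPM. Of the enzymes that edit finished chains, Hpse2 was at 49.5 and 17.7 CPM and the sulfatase Sulf1 at 15.7 and 31.1 CPM. In chondroitin and dermatan sulfate synthesis, 12 of 16 genes were higher in neurons. The sulfotransferase Chst15 had the highest ratio (170 CPM in neurons and 83.0 in glia), and the sulfotransferase Chst3, which was lower in neurons, had the lowest (1.87 and 25.7 CPM). Of 8 chondroitin sulfate core proteins 1 was higher in neurons, Cspg5 (8.22 and 7.11 CPM), and Cspg4 had the lowest ratio (4.13 and 38.1 CPM). None of the 6 genes of sulfate donor supply was higher in neurons: the sulfate transporter Slc26a2 was at 14.6 and 16.6 CPM, and Papss1, which makes the sulfate donor, at 49.0 and 93.7 CPM. In the linkage region B4galt7 was at 8.70 and 8.32 CPM and Pxylp1 at 0.73 and 4.90 CPM. These ratios are subject to the same neuronal RNA in satellite glia, whose part in them was not tested.

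The next comparison asks whether the enzymes differ between the left and right ganglia, whose nerves supply the viscera unequally. It uses the summed UMIs of each pool in edgeR's quasi-likelihood test with labelled sex as a covariate, fitted over all genes, with p-values adjusted by Benjamini-Hochberg. In neurons, 0.143% of the 13948 genes tested were called at an adjusted p under 0.05 (15 higher and 5 lower on the right). Of the 10 enzymes, 1 was called, Xylt1. The call was lost when any 1 of 7 pools was left out (3 male right, 2 female left and 2 female right pools) and with a replicate block, where 0 enzymes were called. Its side difference was known when the genes were chosen, so nothing is read from that count.

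Xylt1 in all neurons was at 55.9 CPM in the lowest, 88.0 in the median and 107 in the highest left pool, and at 124, 138 and 163 CPM on the right. All 6 right pools lay above all 6 left pools. The share of all tested genes separated in this way is not given here, and 951 of 13948 had an unadjusted p under 0.05 by side in edgeR. The log2 fold change of Xylt1, right over left, was 0.72 ± 0.12 (SE). The share of n3 among neurons ran the same way, at 4.72% ± 1.04 in left and 8.23% ± 1.06 in right pools (SD, n = 6 each), without overlap. Within n3, Xylt1 was at 1171 ± 150 CPM in left pools and 1292 ± 245 CPM in right pools (SD, n = 6 each). These overlapped, and the log2 fold change was 0.12 ± 0.09 (SE), where 0.0138% of 7247 genes were called. The change in n3 minus that in the remaining neurons was -0.18 ± 0.08 (log2, SE), where 0.0384% of 13031 genes were called, and neither count includes an enzyme. In neurons without n3 it was at 34.4 ± 1.97 and 43.5 ± 5.37 CPM (SD, n = 6 each), again without overlap, with a log2 fold change of 0.33 ± 0.07 (SE); there 0.0145% of 13775 genes were called and Xylt1 was not among them. When every pool was given the same mean makeup of subclusters, Xylt1 stood at 108 ± 12 CPM in left pools and 119 ± 16.3 CPM in right pools (SD, n = 6 each), and the sides overlapped.

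**Figure D3:**
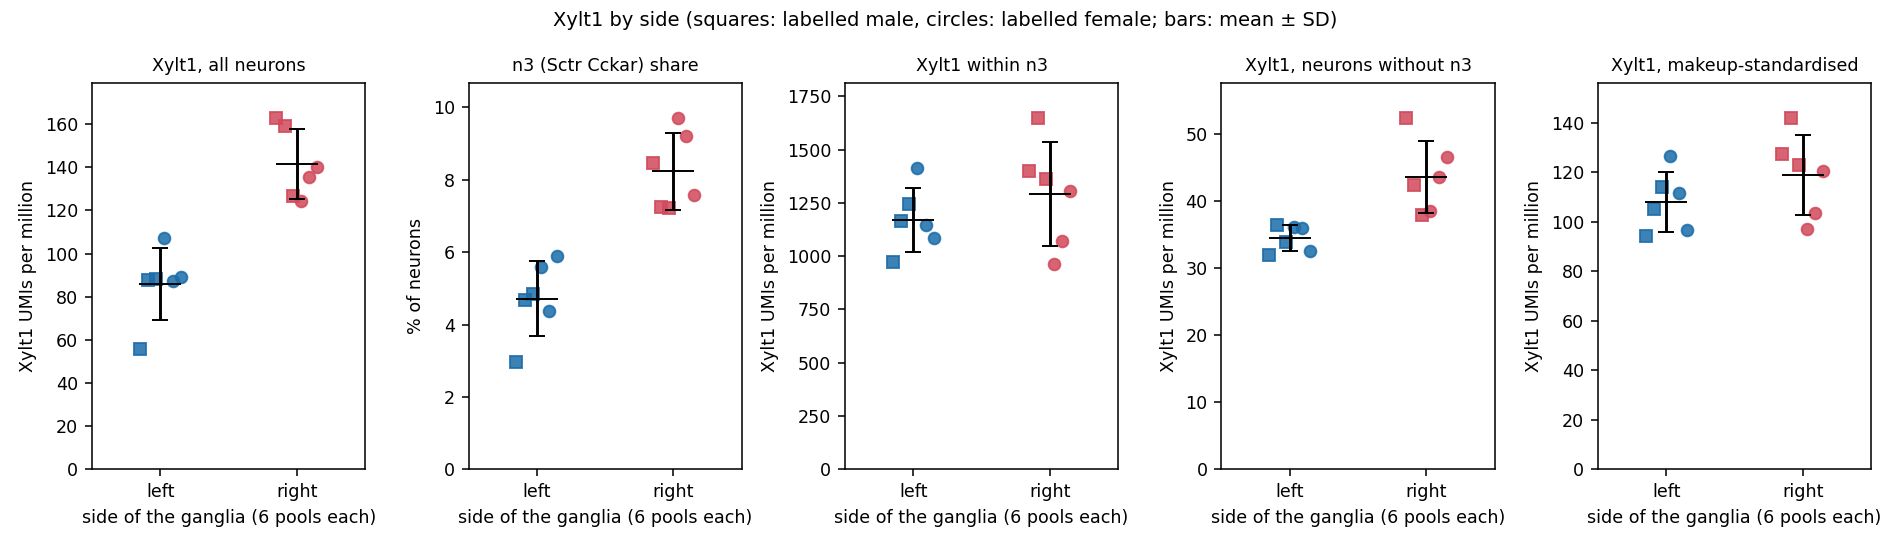
Xylt1 by side in the 12 pools: level in all neurons, share of subcluster n3 among neurons, level within n3, level in neurons without n3, and level standardised to the mean makeup (points are pools, bars mean ± SD of 6). The sides do not overlap in the first 2 panels and in neurons without n3, and do overlap within n3 (1171 and 1292 CPM) and after standardisation (108 and 119 CPM).

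The other 9 enzymes were not called between sides in all neurons. The largest of these differences was for Hs6st3, which was at 310 ± 57.6 CPM in left and 366 ± 46.1 CPM in right pools (SD, n = 6 each). Its log2 fold change was 0.23 ± 0.09 (SE, edgeR adjusted p = 0.681). Standardised to the mean makeup, it was at 325 ± 32.7 and 348 ± 24.8 CPM. Hs3st5 (0.04 ± 0.05), Hs3st4 (0.05 ± 0.08), Hs6st1 (0.06 ± 0.07) and Ndst1 (-0.10 ± 0.06, all log2 ± SE) had the smallest standard errors, and Hs6st2 (-0.04 ± 0.32) the largest. The spread between pools thus limits what could be detected for Hs6st2.

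**Figure D4:**
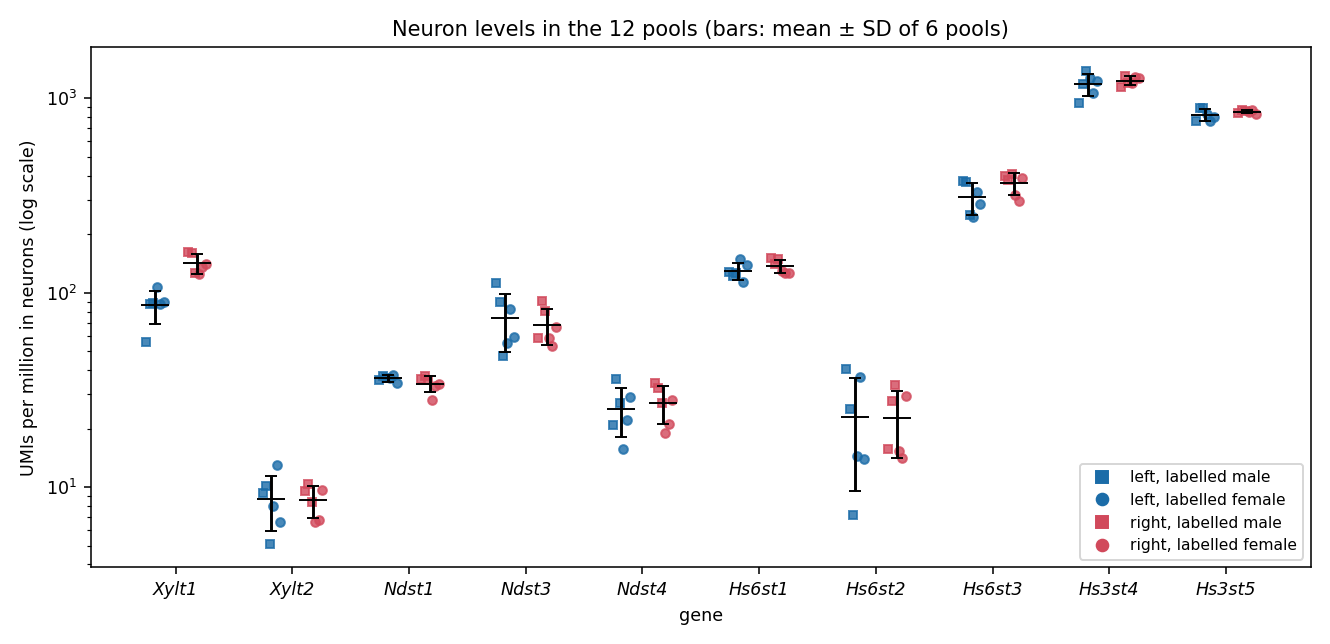
Level of the 10 enzymes in neurons in CPM on a log axis, by side (colour) and labelled sex (squares male, circles female), one point a pool, with mean ± SD of 6 pools. The 6 right pools of Xylt1 (124 to 163 CPM) lie above the 6 left pools (55.9 to 107 CPM), and the sides overlap for the other 9. The share of all genes without overlap is not given here.

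Within subclusters, 2 of the 6-O-sulfotransferases were called between sides. In 14 subclusters with at least 20 nuclei in every pool, 0.223% of 93328 tests over all genes were called between sides, and 2 of 93 tests of the enzymes. These were Hs6st3 in n0, the largest subcluster (Fhip1a, Kirrel3), and Hs6st1 in n2. Both were higher on the right.

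Hs6st3 in n0 was at 64.9 CPM in the lowest, 76.4 in the median and 112 in the highest left pool, and at 99.0, 130 and 160 CPM on the right. Of the 6 right pools, 5 lay above every left pool, and female right 2 (99.0 CPM) was below male left 2 and 3. The means were 85.1 ± 19.2 and 134 ± 23.3 CPM (SD, n = 6 each), and the log2 fold change was 0.66 ± 0.11 (SE, edgeR adjusted p = 0.00132 over the 8713 genes tested in n0, of which 0.103% were called). Leaving out each of the 12 pools gave 0.59 to 0.72 with adjusted p from 0.000287 to 0.0145. At a finer clustering n0 fell into 4 groups, where the right and left levels over all nuclei were 56.5 and 35.5 CPM in 1452 nuclei, 210 and 161 CPM in 1283, 126 and 98.1 CPM in 584, and 89.5 and 45.0 CPM in 295. In the group of 584 the mean of the pools ran the other way, with 109 CPM on the right and 184 CPM on the left. Standardised over the makeup of these groups, n0 stood at 108 ± 61.0 CPM in left pools and 121 ± 14.4 CPM in right pools (SD, n = 6 each), where 1 pool has only 3 nuclei of the group of 584; over the 3 groups with at least 10 nuclei in every pool the right minus left difference was 39.0 CPM, against 48.9 CPM unstandardised. The side difference in n0 minus that in all remaining neurons was 0.38 ± 0.11 (log2, SE) and was not called (edgeR adjusted p = 0.285, 0.141% of 12811 genes called), so the change is not shown to be particular to n0. Over the 14 subclusters Hs6st3 was higher on the right in 11, with a median log2 fold change of 0.14. Hs6st1 was also higher in 11 of 14, with a median of 0.07, and Xylt1 in 7 of 8. The count was 7 of 14 for Hs3st4, 5 of 14 for Hs3st5, 5 of 12 for Ndst1, 6 of 12 for Ndst3, 2 of 3 for Ndst4 and 0 of 2 for Hs6st2. The subclusters come from the same 12 pools and are not independent, and the share over all genes is not given here.

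Hs6st1 in n2 was at 60.2 CPM in the lowest, 69.2 in the median and 84.7 in the highest left pool, and at 87.0, 102 and 139 CPM on the right. The 2 sides did not overlap, and male right 1 and male right 2 were the highest (the share of all genes so separated is not given here). The means were 71.3 ± 9.98 and 111 ± 21.7 CPM (SD, n = 6 each), and the log2 fold change was 0.64 ± 0.13 (SE, edgeR adjusted p = 0.0036 over the 6644 genes tested in n2, of which 0.978% were called). Without male right 2 the adjusted p was 0.0525 and the log2 fold change 0.55. The difference in n2 minus that in the remaining neurons was 0.65 ± 0.14 (log2, SE) and was called (edgeR adjusted p = 0.00461, 0.358% of 12575 genes called). This contrast was added after the call in n2 was seen and reuses its values. The adjustment does not cover that choice, so the p-value adds nothing to that call. In all neurons Hs6st1 differed by 0.06 on this scale. At a finer clustering the right and left levels over all nuclei were 110 and 71.6 CPM in 1665 nuclei of n2 and 180 and 105 CPM in 209 nuclei. In a group of 110 nuclei, with as few as 4 in a pool, they ran the other way, at 40.4 and 47.0 CPM. Other pathway genes that changed in n2 were the glypicans Gpc5 (0.69 ± 0.09, adjusted p = 1.75e-06 in edgeR) and Gpc6 (0.52 ± 0.08), core proteins that carry heparan sulfate, which rose on the right, and the chondroitin synthase Chsy3 (-0.58 ± 0.15), which was lower there. Over the 14 subclusters, 3 of 436 side tests of the other pathway genes were called higher and 2 lower on the right. Chsy3 was also lower on the right in n1 (-0.61 ± 0.10) and Gpc5 higher in n11 (0.66 ± 0.11, all log2 ± SE).

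**Figure D5:**
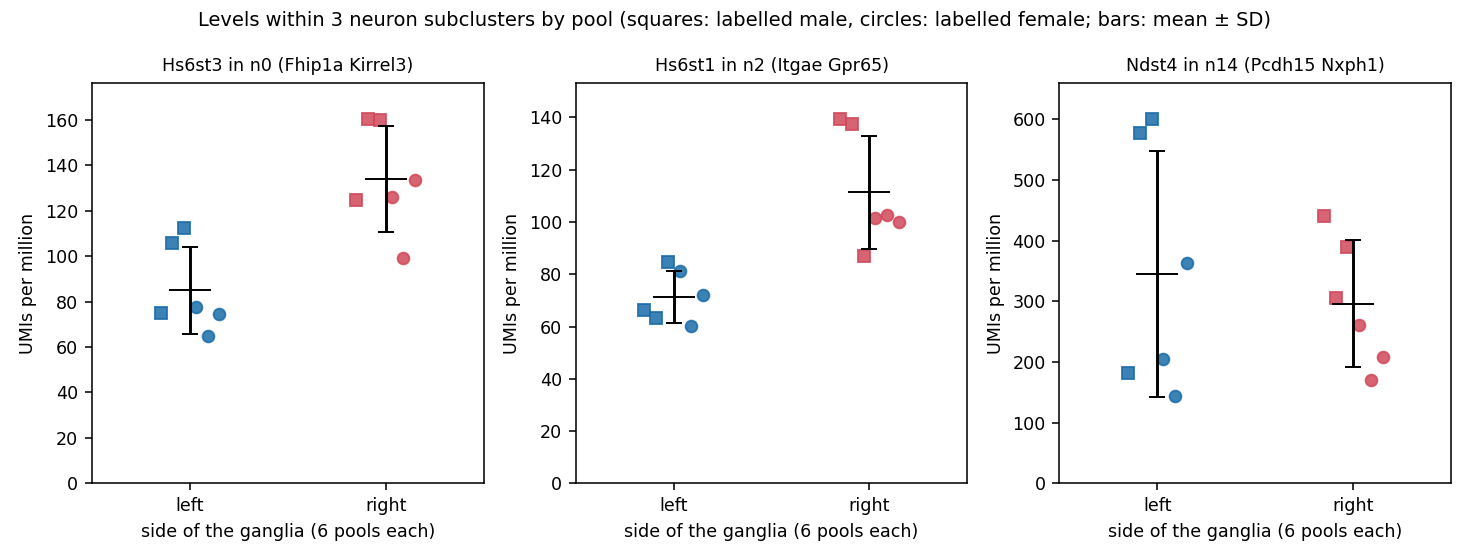
Level of Hs6st3 in n0, Hs6st1 in n2 and Ndst4 in n14 by side, one point a pool (squares labelled male, circles labelled female), with mean ± SD of 6 pools, on axes that start at 0. Right pools are higher for Hs6st3 (134 against 85.1 CPM) and Hs6st1 (111 against 71.3 CPM), while for Ndst4 the labelled males are spread from 181 to 600 CPM.

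By labelled sex, none of the 10 enzymes was called in neurons by edgeR or DESeq2, where 0.0143% of genes were called in edgeR and 2595 of 13948 had an unadjusted p under 0.05. DESeq2 called 420 of 22896 genes. The lowest adjusted p-values were for Ndst4, Ndst3 and Hs6st3, with log2 differences, labelled female over male, of -0.40 ± 0.15 for Ndst4 (adjusted p = 0.168), -0.39 ± 0.16 for Ndst3 (0.212) and -0.25 ± 0.09 for Hs6st3 (0.16, log2 ± SE, edgeR). For Ndst3 the makeup-standardised level was 73.7 ± 5.48 CPM in labelled males and 69.5 ± 3.04 CPM in labelled females (SD, n = 6 each), against 79.8 ± 23.4 and 62.5 ± 10.8 CPM unstandardised. Without male left 3, the pool with the smallest share of Prdm12 subclusters, Ndst3 (-0.51, adjusted p = 0.0427) and Hs6st3 (-0.33, 0.0369) were called in edgeR among 372 genes. Without male left 1 and female left 1 none was called. No enzyme was called for a difference of the side effect between the labelled sexes (0.0% of genes called in edgeR; 593 of 13948 genes, by that tool, and 311 by DESeq2 had an unadjusted p under 0.05).

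Within subclusters, labelled sex called 0.206% of the 93328 tests and 1 of 93 tests of the enzymes, a count made after the values by side were seen. This was Ndst4 in n14, at 181 CPM in the lowest, 416 in the median and 600 in the highest labelled male pool, and at 144, 206 and 363 CPM in labelled females. The sexes overlapped. The log2 fold change was -0.78 ± 0.18 (SE, edgeR adjusted p = 0.0231, 0.448% of 5361 genes called). Without male left 1, whose Y-linked genes summed to 2.88 CPM, and female left 1, it was -0.93 with an edgeR adjusted p of 2.51e-05 (the number of all genes called in that fit is not given here). The call was lost without male left 2, male left 3, male right 1, female right 2 or female right 3 (adjusted p from 0.0576 to 0.168). In the finer group of n14 that carries the gene, the pool means were 749 ± 252 CPM in labelled males and 451 ± 170 CPM in labelled females (SD, n = 6 each), with as few as 8 nuclei in a pool. The difference in n14 minus that in the remaining neurons was -0.57 ± 0.17 (log2, SE) and was not called (edgeR adjusted p = 0.271, 0.0468% of 12827 genes called). Without male left 1 and female left 1, Hs6st3 (-0.30 ± 0.07, adjusted p = 0.0126) and Xylt1 (-0.32 ± 0.08, 0.0305) were also lower in labelled females within n3, where 6 enzymes were tested and 60 of 7736 genes were called. With all pools neither was called (adjusted p = 0.284 and 0.588, edgeR), and 12 of 7247 genes were.

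In the non-neuronal classes no enzyme was called by side (0.0223% of 22460 tests called over the 3 classes) or by labelled sex (0.0%), in 21 tests each; 10 of the enzymes passed the filter on low counts in satellite glia, 6 in Schwann cells and 5 in vascular nuclei. At an unadjusted p under 0.05, 1418 and 1170 of the 22460 tests passed in edgeR. Xylt1 in satellite glia was at 59.3 ± 4.53 CPM in left pools and 65.6 ± 8.90 CPM in right pools (SD, n = 6 each). In Schwann cells its log2 fold change was 0.54 ± 0.23 (SE, edgeR adjusted p = 0.667).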

How the data were processed

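Nuclei of 12 pools were barcoded by split-pool combinatorial labelling and sequenced in 8 sublibraries, per the labels' protocols. The authors deposited UMI counts per gene and nucleus, with a table naming each nucleus's pool; the submitters' processing notes name the build mRatBN7.2, R 4.3.2 and Seurat 4.1.3. The aligner is not given in the sources used here. Of 36741 nuclei with a median of 2680 UMIs, 10.4% share a well code with a nucleus of another sublibrary, although full barcodes are unique. Filters asked for a minimum of 300 genes and no more than 5% mitochondrial UMIs, which 1 nucleus failed. The doublet caller marked 2 nuclei (0.00544%), so it did not work, and an alternative leaves out the top 5% of scores. Clustering used scanpy 1.11.5 with Leiden (leidenalg 0.10.2) on 3000 variable genes, 30 components, 20 neighbours and resolution 1, without the 74 pathway genes found. Endothelial and mural clusters were merged as vascular after they were seen. Classes and subclusters were named from fixed marker lists, and differences from another annotation may come from these names.

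UMI counts were summed per pool and tested with edgeR 4.0.16 (TMM, filter on low counts, quasi-likelihood test) in R 4.3.3, with side and labelled sex as terms and Benjamini-Hochberg adjustment over all genes tested. Only subclusters and classes that had 20 or more nuclei in each pool were tested, and pool levels were used with at least 10 nuclei. The contrasts of n0, n2, n3 and n14 with the remaining neurons were added after the results were seen. The script was tested on simulated data. The alternatives were DESeq2 1.42.0, limma-voom (limma 3.58.1), no filter, each pool left out, both pools with sex genes against their labels left out, other resolutions and a replicate block. DESeq2 and no filter were run for neurons and the 3 non-neuronal classes, and limma-voom and the replicate block for neurons only. Fits within subclusters were repeated only with pools left out, so the calls there were not checked with another tool or the block. The deviations of left and right pools with the same number and labelled sex correlated at -0.09 to 0.15. The pools with sex genes against their labels are among them, and the labels do not say which rats share a pool. These values therefore cannot show whether left and right pools of the same number share rats. Intervals cover counting error only, and sublibraries are technical splits.

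The members and lists were chosen with earlier results of these data known. The named genes are the 10 enzymes, the other pathway genes with an adjusted p under 0.05 in a fit used here, the gene with the highest and the lowest neuron over satellite glia ratio in each role group, and the 3 genes most like each enzyme. Because the genes were chosen in this way, Xylt1 is given by side in neurons without a p, though whether it was called is stated.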

Additional observations from a re-analysis of the deposited data

Results flagged for a closer look

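2 results stood apart from their group or from the rest of the neurons. In neurons, Xylt2 in 1 of the 8 sublibraries was at 10.7 CPM, and the others ran from 7.92 to 9.13 CPM. Among 36 groups of sublibraries or pools checked this was the 1 outlying sample, and chance gives about 1 in 20 groups. The side difference of Hs6st1 in n2 was larger than that in the remaining neurons by 0.65 on the log2 scale. Subcluster n2 was taken for this contrast because of its side call, so the contrast is a description.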

How the results depend on the processing

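Over the main results and their alternatives, 99 values kept their call or stayed within the spread between pools, 13 counts were lower and 3 were higher. In neurons, the number called by side ran from 0 to 1 when a pool was left out, and Xylt1 was not called without male right 1, 2 or 3, female left 2 or 3, or female right 2 or 3, while its log2 fold change ran from 0.60 to 0.80. With the replicate block 0 enzymes were called (3 genes in all). The number called by labelled sex in neurons ran from 0 to 2, the latter without male left 3. Within subclusters the number by side ran from 1 to 2, with 1 without male right 2, while calls over all genes ran from 157 to 220. By labelled sex the number ran from 0 to 2, while calls over all genes ran from 58 to 615. It was 0 without male left 2, male left 3, female right 2 or female right 3, and 2 without male right 1. Without male left 1 and female left 1 together it was 3, where the count over all genes is not given here. The right minus left difference of Hs6st3 in n0 fell to 13.9 CPM when standardised to finer groups; 1 pool there has 3 nuclei of one group, and whether that accounts for it was not tested. The number of all genes called by side in neurons was 20 in edgeR, 64 with DESeq2, 22 with limma-voom, 43 with no filter, 1 without male left 1 and female left 1, and 4 to 24 with 1 pool left out; by labelled sex it was 2 in edgeR, 420 with DESeq2, 567 with no filter, 39 without both pools, 28 without the nuclei of highest doublet scores and 0 to 568 with 1 pool left out. The highest subcluster was the same for 9 of 10 enzymes by share of thinned nuclei, all but Ndst4, and for 9 of 10 with the pathway genes kept for clustering, all but Hs3st4. Low counts limit Xylt2 and the small subclusters most.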
